A study of Mus musculus with 8 samples.

Results

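The cerebral cortex is built in layers, and a small set of transcription factors and other genes is used to tell its neurons apart by layer. The 9 such genes described here, of 34650 gene names on the array, were chosen by name, with earlier results of these data known, and are taken from the upper to the deep layers. They are Cux1, Cux2 and Rorb for the upper layers and Bcl11b, Fezf2, Tbr1, Tle4, Foxp2 and Ctgf for the deep layers. RNA was measured in the prefrontal cortex (PFC) of mice that lack α-galactosidase A, a lysosomal enzyme whose loss causes Fabry disease, and of wildtype mice, to find genes that differ between the genotypes. The 4 α-Gal A(-/0) mice carry the null allele on a C57BL/6 background, their 4 counterparts are wildtype C57BL/6J, and all 8 are males of 20 to 24 weeks. Each genotype came from an inbred colony of its own, so genotype and colony cannot be told apart. Each mouse gave 1 one-color array, and all 8 arrays lay on 1 slide read in 1 scan. The genotypes were not balanced over the slide, since slide row 1 held α-Gal A(-/0) mouse 1 with wildtype mice 1 to 3 and slide row 2 held α-Gal A(-/0) mice 2 to 4 with wildtype mouse 4, so that a difference within a row sets 1 mouse against 3.

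Upper layer neurons mostly connect areas within the cortex, layer 5 neurons send axons to the brainstem, spinal cord and striatum, and layer 6 neurons project to the thalamus. During development the factors named here specify these classes and in part repress each other, and in the adult they remain as marks of layer identity. The mouse PFC is agranular, with no distinct layer 4. The tissue was whole, so a lower level of a layer gene can come from fewer cells of the layer or from less RNA per cell, and these cannot be told apart.

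The array carried 18 probes of 60 bases for the 9 genes, and 17 of them were tested. A probe was tested if all 4 arrays of one genotype or the other measured it well above background, which held for 34339 probes and 23638 gene names in all. The level of a probe is given as log2 of its normalized signal, a difference is α-Gal A(-/0) minus wildtype on that scale, and levels of different probes are not comparable. Probes of 1 gene are numbered by brightness. For each gene the array's annotation gives the position of the probe on mouse build mm9, and all positions below are on that build.

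The sequences of 4 probes can be read against a known protein domain and are printed here. They do not show which transcripts gave the signal. For Cux1 and Foxp2 the printed probe is not the brightest, which the layer means and correlations below use. Cux1 probe 3, at chr5:136755342-136755401 on the minus strand, lies in the part that codes for the homeodomain of Cux1, and it is printed without capitals. Bcl11b probe 1, at chr12:109153847-109153906 on the minus strand, and the Fezf2 probe, at chr14:13175057-13175116 on the minus strand, read through stretches of zinc fingers. Capitals mark every cysteine and histidine codon in the reading frame that has no stop codon. Only some cysteines and histidines of a finger hold zinc, and which of those marked do so was not tested. Foxp2 probe 2 codes for the end of the forkhead domain and is printed without capitals. Its 60 bases span chr6:15363873-15365044 on the plus strand, which is longer than the probe, so the probe crosses a splice junction.
Cux1 probe 3: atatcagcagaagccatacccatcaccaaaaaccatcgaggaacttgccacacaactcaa
Bcl11b probe 1: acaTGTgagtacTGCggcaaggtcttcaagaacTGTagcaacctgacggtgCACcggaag
Fezf2: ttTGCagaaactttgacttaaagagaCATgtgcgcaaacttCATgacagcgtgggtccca
Foxp2 probe 2: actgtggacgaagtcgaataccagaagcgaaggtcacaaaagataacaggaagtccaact

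No layer marker gene passed the test between genotypes. Of the 17 tested probes, 0 were called by limma, at an adjusted p under 0.05 (Benjamini-Hochberg over every tested probe), against 0.877% of all tested probes (301 of 34339). Before adjustment, Bcl11b probe 1 and Fezf2 were the 2 probes with p under 0.05, against 11.9% of all tested probes. At 0 of the 17 probes did the genotypes fail to overlap, against 7.94% of all tested probes. The median difference over the 17 probes was -0.06, beside -0.023 over all tested probes. The spread between mice of 1 genotype was also ordinary, with a median SD of 0.15 beside 0.14 over all tested probes.

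**Figure D1:**
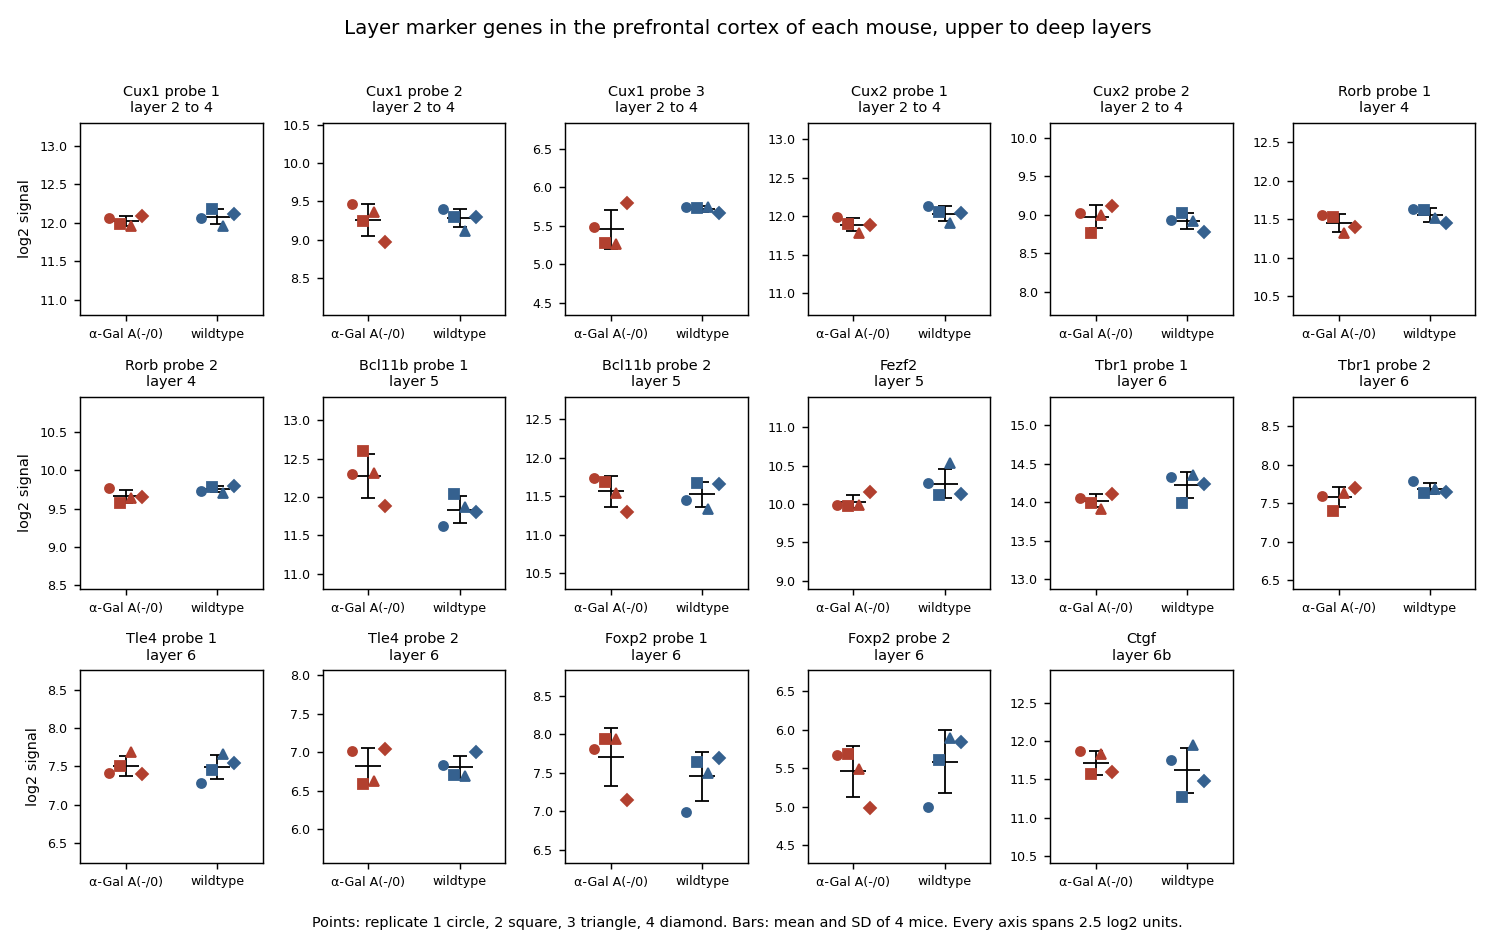
Log2 normalized signal of the 17 tested probes of the 9 layer marker genes, from upper layers (top left) to layer 6b (bottom), in 4 α-Gal A(-/0) mice (red) and 4 wildtype mice (blue), with the mean and SD of each genotype as bars. The genotypes overlap at every probe, and α-Gal A(-/0) mouse 4 sits apart from the other 3 of its genotype at Fezf2 and at Foxp2 probe 1.

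The upper layer genes differed little. Cux1 and Cux2 code for homeodomain factors of layers 2 to 4 that shape dendrites and synapses of these neurons. At Cux1 probe 1, the brightest, the level was 12.06, 11.98, 11.95 and 12.08 in α-Gal A(-/0) mice 1 to 4 and 12.06, 12.17, 11.95 and 12.12 in wildtype mice 1 to 4. Mouse 3 of each genotype had the lowest value, the same to 2 decimals, and the difference of -0.06 (SE 0.07, 95% interval -0.21 to 0.09, limma adjusted p = 0.77) was within the spread between mice. This probe matches other RefSeq transcripts of Cux1 than probes 2 and 3 do, with 0 accessions shared. Whether its transcripts code for the homeodomain was not tested. As the brightest, it alone stands for Cux1 in the layer means, correlations and ranking below, unless stated otherwise. At probe 3, in the homeodomain, the level was 5.49, 5.27, 5.26 and 5.80 in α-Gal A(-/0) mice and 5.74, 5.74, 5.74 and 5.66 in wildtype mice. Mice 1 to 3 of the α-Gal A(-/0) group were below all wildtype mice, while mouse 4 was the highest of all 8. The difference was -0.27 (SE 0.12, 95% interval -0.54 to 0.01, limma adjusted p = 0.43). This dim probe was well above background in 3 of 4 α-Gal A(-/0) mice, and with another background correction (normexp) its difference was -0.05. Probe 2, which matches the same 3 RefSeq transcripts as probe 3, differed by -0.02 (SE 0.11, limma adjusted p = 0.97).

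At Cux2 probe 1 the level was 12.00, 11.91, 11.79 and 11.88 in α-Gal A(-/0) mice and 12.14, 12.06, 11.91 and 12.04 in wildtype mice. The ranges overlapped, with α-Gal A(-/0) mouse 1 above wildtype mouse 3, and the difference was -0.14 (SE 0.07, 95% interval -0.30 to 0.02, limma adjusted p = 0.48). Probe 2 of Cux2 lay on the other side of 0, at 0.06 (SE 0.09, limma adjusted p = 0.84). Rorb, a nuclear receptor that marks layer 4 neurons in sensory cortex, was measured at 11.56, 11.52, 11.32 and 11.40 in α-Gal A(-/0) mice and 11.63, 11.62, 11.51 and 11.45 in wildtype mice at its brighter probe. The level ran from 11.32 to 11.56 in one genotype and from 11.45 to 11.63 in the other, with a difference of -0.10 (SE 0.08, 95% interval -0.28 to 0.07, limma adjusted p = 0.64). Rorb probe 2 gave -0.09 (SE 0.06, limma adjusted p = 0.58). Of the 7 upper layer probes, 6 were lower in the α-Gal A(-/0) group, none of them past the test.

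Bcl11b, also known as Ctip2, codes for a zinc finger factor that layer 5 neurons need to send axons to the spinal cord. It is also strongly expressed by the spiny projection neurons of the striatum. At probe 1 its level was 12.30, 12.59, 12.31 and 11.89 in α-Gal A(-/0) mice and 11.62, 12.04, 11.87 and 11.81 in wildtype mice. Mice 1 to 3 of the α-Gal A(-/0) group exceeded all wildtype mice, and mouse 4 fell among them. The means were 12.27 ± 0.29 and 11.84 ± 0.18 (SD, n = 4 each), a difference of 0.44 (SE 0.15, 95% interval 0.09 to 0.79) or 1.35-fold, with an unadjusted p of 0.02 and an adjusted p of 0.32 in limma. This was the largest difference among the 17 probes, and it was 0.45 with the slide row of the array as a block (limma adjusted p = 0.59). Within slide row 1 it was 0.46 and within slide row 2 0.45, each with 1 mouse in one of the genotypes.

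The second Bcl11b probe, at chr12:109148932-109148991, matches the same 3 RefSeq transcripts in its annotation but gave a smaller difference. Its level was 11.74, 11.68, 11.55 and 11.29 in α-Gal A(-/0) mice and 11.45, 11.67, 11.33 and 11.65 in wildtype mice. The difference was 0.04 (SE 0.12, 95% interval -0.23 to 0.31, limma adjusted p = 0.93), and α-Gal A(-/0) mouse 4 was the lowest of all 8. Within the α-Gal A(-/0) group both probes were lowest in mouse 4. The difference between the probes was not tested.

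Fezf2, the zinc finger factor that specifies subcortical projection neurons and acts upstream of Bcl11b, lay on the other side of 0. Its level was 9.99, 9.98, 9.99 and 10.15 in α-Gal A(-/0) mice and 10.28, 10.12, 10.53 and 10.13 in wildtype mice. Mice 1 to 3 of the α-Gal A(-/0) group were below all wildtype mice and mouse 4 was not. The difference was -0.24 (SE 0.10, 95% interval -0.47 to -0.01), or 0.85-fold, with an unadjusted p of 0.044 and an adjusted p of 0.41 in limma. It fell to -0.15 without wildtype mouse 3, the highest of all. It was -0.32 within slide row 1, with 1 α-Gal A(-/0) mouse, and -0.09 within slide row 2, with 1 wildtype mouse.

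The layer 6 factor Tbr1, a T-box protein that represses Fezf2 and Bcl11b in neurons that project to the thalamus, gave 14.06, 13.99, 13.92 and 14.12 in α-Gal A(-/0) mice and 14.33, 13.99, 14.35 and 14.23 in wildtype mice at its brighter probe. Wildtype mouse 2 sat among the α-Gal A(-/0) mice, and the other wildtype mice were above all of them. The difference was -0.21 (SE 0.09, 95% interval -0.42 to 0.01, limma adjusted p = 0.43), and probe 2 gave -0.11 (SE 0.08, limma adjusted p = 0.63). Tle4, a corepressor kept in layer 6 neurons of the same class, differed by 0.01 at both probes, with intervals of -0.22 to 0.24 and -0.29 to 0.30 and limma adjusted p of 0.98 and 0.99. At its brighter probe the level ran from 7.40 to 7.69 in α-Gal A(-/0) mice and from 7.29 to 7.67 in wildtype mice, so that the ranges nearly coincided.

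Foxp2, a forkhead factor of layer 6 that is also found in striatal spiny neurons, had the widest spread within genotypes of the 9 genes. At probe 1 its level was 7.81, 7.94, 7.93 and 7.15 in α-Gal A(-/0) mice and 6.99, 7.64, 7.49 and 7.69 in wildtype mice. The 3 highest values were from α-Gal A(-/0) mice, but mouse 4 of that genotype was lower than every mouse except wildtype mouse 1. The difference was 0.25 (SE 0.22, 95% interval -0.25 to 0.75, limma adjusted p = 0.69), and it was 0.44 without α-Gal A(-/0) mouse 4 and 0.10 without wildtype mouse 1. Within slide row 1, with 1 α-Gal A(-/0) mouse, it was 0.43, and within slide row 2, with 1 wildtype mouse, it was -0.02. The SD within genotypes was 0.35, above that of 90.6% of all tested probes, and the 8 mice spanned a 1.94-fold range. At probe 2, in the forkhead domain, the level was 5.67, 5.68, 5.50 and 4.99 in α-Gal A(-/0) mice and 5.0, 5.61, 5.90 and 5.84 in wildtype mice. The same mice, α-Gal A(-/0) mouse 4 and wildtype mouse 1, were again lowest, and the difference was -0.13 (SE 0.23, limma adjusted p = 0.87). Foxp2 probe 3 was not well above background on any array and was not tested.

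Ctgf, now named Ccn2, codes for a secreted matrix protein and marks layer 6b, the thin sheet of neurons that remains from the subplate. Its level was 11.87, 11.57, 11.83 and 11.60 in α-Gal A(-/0) mice and 11.76, 11.27, 11.95 and 11.48 in wildtype mice. The lowest and the highest value were both from wildtype mice. The difference was 0.10 (SE 0.15, 95% interval -0.25 to 0.45, limma adjusted p = 0.84). Across the 10 deep layer probes, 6 were higher and 4 lower in the α-Gal A(-/0) group.

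**Figure D2:**
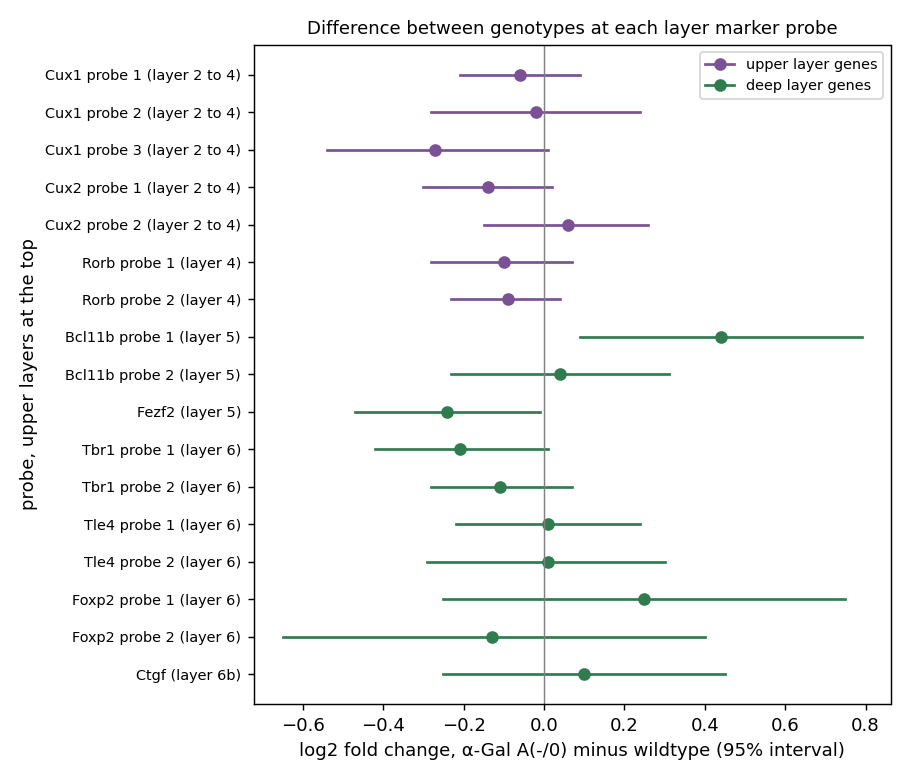
Log2 difference between genotypes (α-Gal A(-/0) minus wildtype, points) with its 95% interval (lines) at the 17 tested probes, upper layer genes in purple and deep layer genes in green. Bcl11b probe 1 at 0.44 and Fezf2 at -0.24 have intervals that do not reach 0, before adjustment over all tested probes.

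Upper and deep layers were then compared within each mouse, as the mean deviation of the genes from their wildtype means at the brightest probe of each gene. The upper layer mean was -0.02, -0.09, -0.20 and -0.10 in α-Gal A(-/0) mice 1 to 4 and 0.06, 0.06, -0.10 and -0.02 in wildtype mice. The deep layer mean was 0.09, 0.11, 0.13 and -0.10 in α-Gal A(-/0) mice and -0.10, -0.06, 0.16 and 0.00 in wildtype mice. The ranges of the genotypes overlapped for both. The upper minus deep value was -0.11, -0.20, -0.33 and 0.00 in α-Gal A(-/0) mice and 0.16, 0.12, -0.26 and -0.02 in wildtype mice, with wildtype mouse 3 lower than all but 1 of the α-Gal A(-/0) mice. The means were -0.16 ± 0.14 and 0.00 ± 0.19 (SD, n = 4 each), a difference of the size of these SDs, and no test was made on this score. Within the deep layer genes the members did not move as 1 group, since Bcl11b and Foxp2 at probe 1 were above and Fezf2 and Tbr1 below their wildtype means in α-Gal A(-/0) mice 1 to 3.

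The deviations of Bcl11b and Foxp2 followed the level of striatum markers in the same mice. The list of striatum markers holds 18 genes, all tested, of which 17 were higher in the α-Gal A(-/0) group with a median difference of 0.61. An unadjusted p under 0.05 was reached by 3 of them, against 12.2% of all tested genes. By limma 0 of the striatum markers were called, against 0.926% of all tested genes. Their mean deviation was 0.93, 1.06, 0.72 and -0.44 in α-Gal A(-/0) mice and -0.74, 0.55, 0.11 and 0.08 in wildtype mice. It was thus high in α-Gal A(-/0) mice 1 to 3 and wildtype mouse 2 and lowest in wildtype mouse 1 and α-Gal A(-/0) mouse 4. The defining markers Drd2, Adora2a, Rgs9, Six3, Isl1 and Gpr6 were well above background on all 8 arrays, and 8 other genes of the list are also expressed by cortical neurons.

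Over the 8 mice, Bcl11b probe 1 correlated with the striatum marker mean at r = 0.91 (exact permutation p = 0.0016, adjusted over the 9 genes 0.0071) and Spearman's rho = 0.90 (exact permutation p = 0.0046, adjusted 0.021). Without the 2 mice farthest from the median, wildtype mouse 1 and α-Gal A(-/0) mouse 4, r was 0.96. For Foxp2 probe 1, r was 0.95 (exact permutation p = 0.00077, adjusted 0.0069) and rho 0.90 (exact permutation p = 0.0046, adjusted 0.021), with r = 0.80 without the same 2 mice. With the mean of all tested probes of a gene in place of the brightest, r was 0.95 for Bcl11b and 0.86 for Foxp2, and Tbr1 also passed, at r = -0.85 (exact permutation, adjusted p = 0.027). Without wildtype mouse 1 alone, r was 0.88 for Bcl11b (exact permutation, adjusted p = 0.052) and 0.91 for Foxp2 (exact permutation, adjusted p = 0.048), so that 1 of the 9 relations passed. The permutations ran over the mice of both genotypes together. Bcl11b probe 1, Foxp2 probe 1 and the striatum marker mean were all higher in the α-Gal A(-/0) group. Their r and p thus include the difference between genotypes. A genotype of 4 mice is too small for a correlation of its own.

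Fezf2 and Tbr1 ran the other way. For Fezf2, r was -0.61 (exact permutation p = 0.10, adjusted 0.23) and rho -0.86 (exact permutation p = 0.011, adjusted 0.032), and for Tbr1, r was -0.72 (exact permutation p = 0.05, adjusted 0.15) and rho -0.64 (exact permutation p = 0.096, adjusted 0.22). Without the 2 farthest mice these r were -0.77 and -0.80, and without wildtype mouse 3, the highest at Fezf2, the r of Fezf2 was -0.94 (exact permutation, adjusted p = 0.0018). The r of Cux1, Cux2, Rorb, Tle4 and Ctgf lay between -0.40 and 0.45, with adjusted exact permutation p of 0.48 or more, and that of Tle4 turned from 0.45 to -0.44 without the 2 farthest mice. With the striatum marker mean as a covariate in limma, the genotype difference was 0.23 at Bcl11b probe 1 (adjusted p = 0.30), -0.05 at Foxp2 probe 1 (adjusted p = 0.87), -0.18 at Fezf2 (adjusted p = 0.53) and -0.13 at Tbr1 probe 1 (adjusted p = 0.58). Without the covariate, the differences at probe 1 of Bcl11b, Foxp2 and Tbr1 were 0.44, 0.25 and -0.21. The second probes of Bcl11b, Foxp2 and Tbr1 moved in the same direction as the first, from other starting values. With the covariate, Foxp2 probe 2 went from -0.13 to -0.42 (limma adjusted p = 0.32), away from 0. Bcl11b probe 2 went from 0.04 to -0.09 (limma adjusted p = 0.74) and Tbr1 probe 2 from -0.11 to -0.03 (limma adjusted p = 0.87). The striatum marker mean was itself higher in the α-Gal A(-/0) group, so the fit with this covariate cannot separate striatal RNA from genotype. The part of striatal RNA in these levels was not tested.

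**Figure D3:**
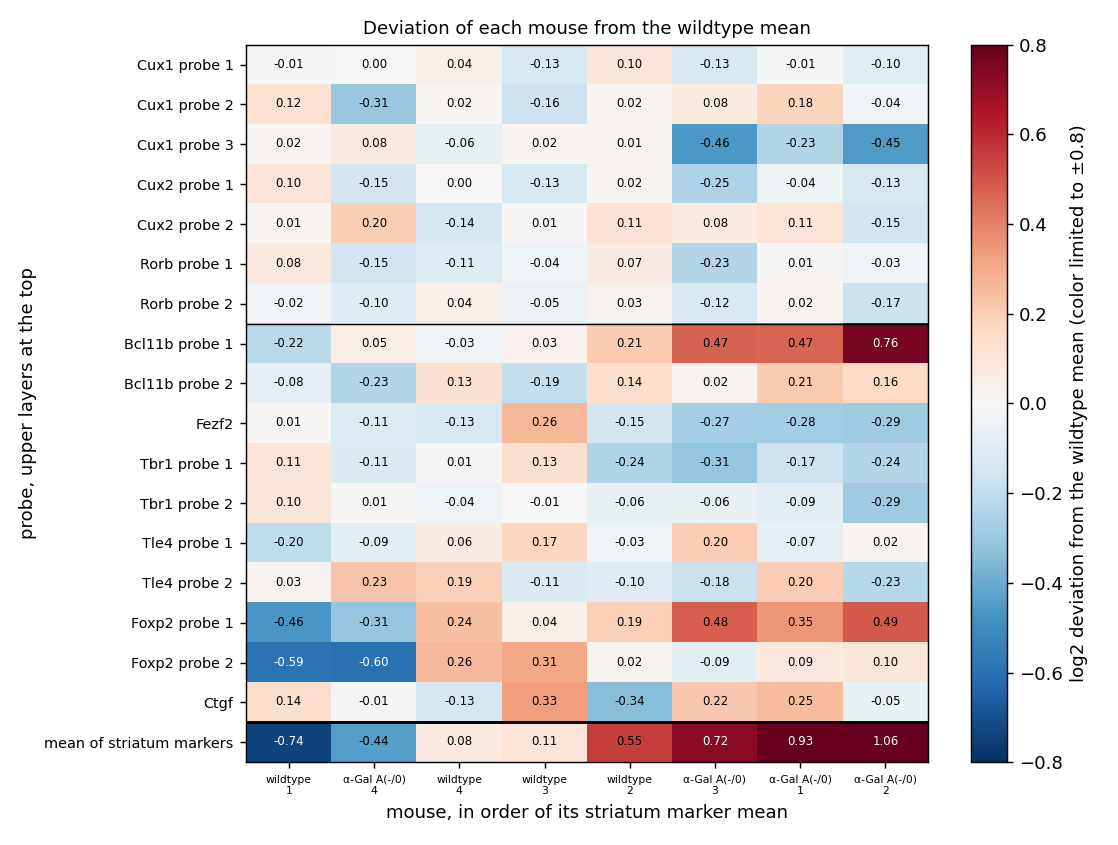
Log2 deviation of each mouse from the wildtype mean (color and number) at the 17 tested layer marker probes, above the mean deviation of 18 striatum markers (bottom line), with mice ordered by that mean. Bcl11b probe 1 and Foxp2 probe 1 turn from negative in wildtype mouse 1 to positive in α-Gal A(-/0) mouse 2, and Fezf2 and Tbr1 are negative in the 4 mice with the highest mean. Fezf2 and Tbr1 probe 1 are also negative in α-Gal A(-/0) mouse 4 (-0.11 each), whose mean is low, and Fezf2 in wildtype mouse 4 (-0.13).

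**Figure D4:**
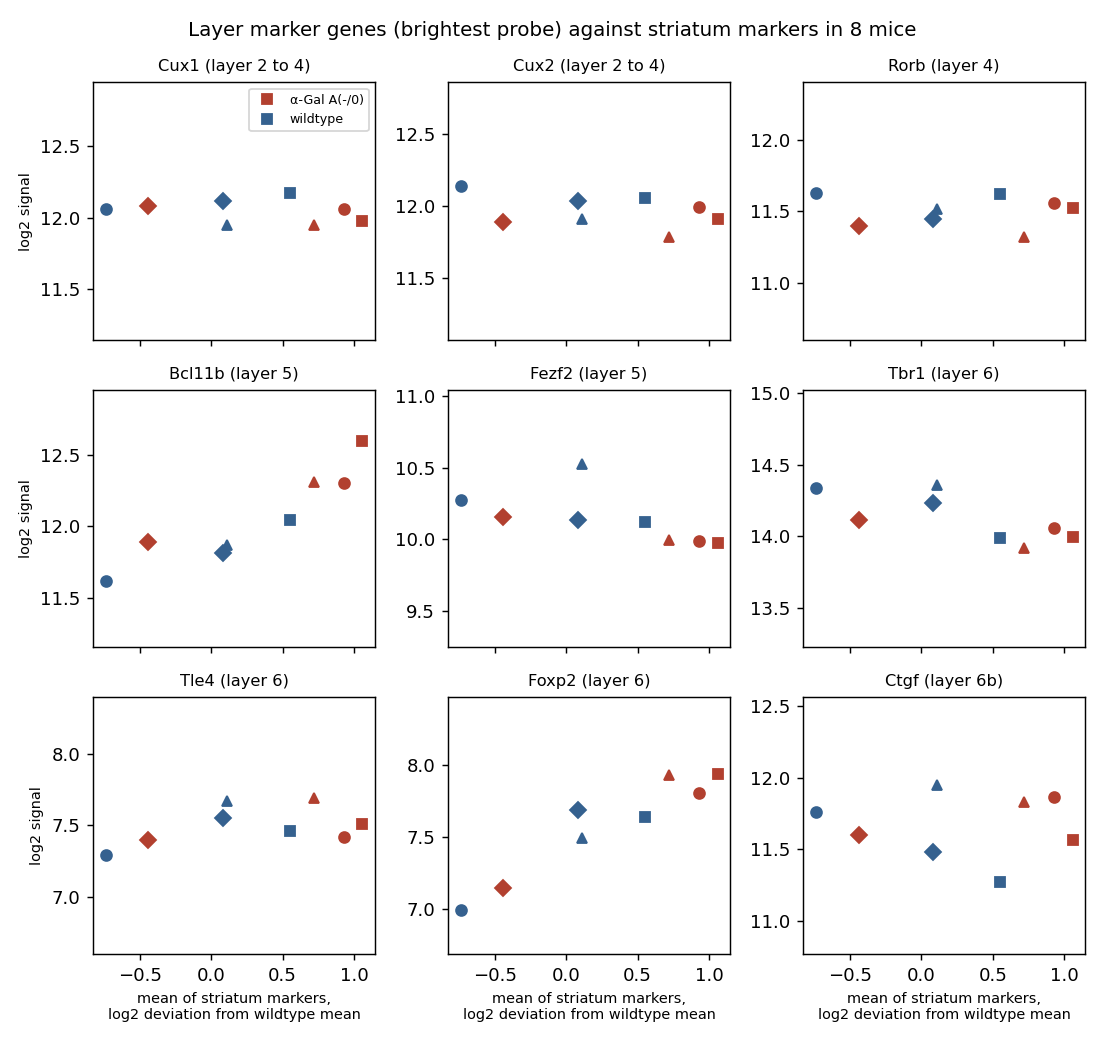
Log2 normalized signal of each layer marker gene at its brightest probe against the mean log2 deviation of 18 striatum markers in 4 α-Gal A(-/0) mice (red) and 4 wildtype mice (blue), with mice 1 to 4 of each genotype as circle, square, triangle and diamond. Bcl11b (r = 0.91) and Foxp2 (r = 0.95) rise with the striatum markers, and all vertical axes have the same length.

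Other genes of the same layers gave no further difference past the test. Of 38 other layer genes, each at its brightest probe, 0 were called by limma, against 0.926% of all tested genes (219 of 23638), and 6 had an unadjusted p under 0.05, against 12.2% of all tested genes. Among 11 tested upper layer genes, 9 were higher and 2 lower, with a median of 0.06, the opposite side of 0 from Cux1, Cux2 and Rorb. Those counted as higher include Rspo1 at 0.01 and Scnn1a at 0.00. The lowest p was that of Wfs1, an endoplasmic reticulum protein of layer 2 neurons, at 0.42 (SE 0.14, limma adjusted p = 0.30), followed by Otof at 0.23 (SE 0.10, limma adjusted p = 0.43). Wfs1 was at 13.95, 14.05, 13.91 and 13.54 in α-Gal A(-/0) mice and 13.28, 13.75, 13.31 and 13.45 in wildtype mice. Within each genotype it was lowest in the same mouse as Bcl11b probe 1 and the striatum marker mean. The same held for Cartpt, at 0.35 (SE 0.28, limma adjusted p = 0.67). The part of striatal RNA in these genes was not tested.

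Among 15 other layer 5 genes, 6 were higher and 9 lower (median -0.06). The potassium channel Kcnn2 was lower in each α-Gal A(-/0) mouse (11.52, 11.64, 11.67 and 11.65) than in any wildtype mouse (11.92, 11.72, 11.80 and 11.98), one of the 8.39% of all tested genes whose genotypes did not overlap, but its difference of -0.24 (SE 0.07) had a limma adjusted p of 0.26. Hsd11b1 differed by -0.36 (SE 0.11, limma adjusted p = 0.28). Of 12 other genes of layers 6 and 6b, 7 were higher and 5 lower (median 0.05). Nxph4, a neurexin ligand of layer 6b, was at 7.70, 7.65, 7.78 and 7.74 in α-Gal A(-/0) mice and 7.59, 7.41, 7.47 and 7.33 in wildtype mice, with no overlap and a difference of 0.27 (SE 0.07, limma adjusted p = 0.18). This was larger than the 0.10 at Ctgf, the other layer 6b gene named here, and the difference between the genes was not tested.

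Among 23 further factors of cortical neuron specification, 17 were lower and 6 higher in the α-Gal A(-/0) group. Of all 23638 tested genes, 13407 were lower and 10231 higher. By limma 0 of the factors were called, against 0.926% of all tested genes, and 2 had an unadjusted p under 0.05, against 12.2%. For the 23 factors the median difference was -0.12, beside -0.02 over all tested genes. Their mean deviation was -0.09, -0.14, -0.11 and -0.08 in α-Gal A(-/0) mice and 0.02, -0.01, 0.02 and -0.03 in wildtype mice. Pou3f2, a POU factor of upper layer neurons, was at 9.13, 8.86, 9.11 and 8.81 in α-Gal A(-/0) mice and 9.17, 9.33, 9.49 and 9.32 in wildtype mice, with no overlap and a difference of -0.35 (SE 0.10, limma adjusted p = 0.24). The nuclear receptor Nr2f1, which sets the areas of the cortex, also had no overlap, at -0.14 (SE 0.05, limma adjusted p = 0.37). Pou3f2 and Nr2f1 were the 2 of 23 factors with no overlap, near the 8.39% of all tested genes.

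The label of the tissue was checked against markers. All 5 markers of excitatory neurons were tested, with a median difference of 0.00, and Slc17a7, the vesicular glutamate transporter of cortical neurons, was at 12.08 to 12.49 in α-Gal A(-/0) and 12.21 to 12.31 in wildtype mice. Mean deviations of olfactory bulb markers ran from -1.05 to 1.14 in α-Gal A(-/0) mice and from -0.76 to 0.94 in wildtype mice, high in α-Gal A(-/0) mice 3 and 4 and wildtype mouse 1. Of 8 oligodendrocyte markers 7 were higher in the α-Gal A(-/0) group (median 0.19). An unadjusted p under 0.05 was reached by 4 of them, against 12.2% of all tested genes. The genotypes did not overlap at 2, Cldn11 and Mobp, against 8.39% of all tested genes. Cldn11 differed by 0.22 (SE 0.07, limma adjusted p = 0.30) and Mobp by 0.30 (SE 0.10, limma adjusted p = 0.31). Of 10 vascular markers 8 were lower (median -0.10), 6 of 10 inhibitory neuron markers were higher (median 0.08), 4 of 7 thalamus markers were lower (median -0.03), and 0 genes of these lists were called by limma. Over all 11 lists of other genes, 17 of 124 genes had an unadjusted p under 0.05, against 12.2% of all tested genes. The number of probes well above background ran from 29897 to 38193 per array. The probe of Gla, the gene of α-galactosidase A, was at 17.13 to 17.18 in α-Gal A(-/0) and 17.01 to 17.16 in wildtype mice (limma adjusted p = 0.70). Whether it lies in the disrupted part of the gene is not given in the sources used here, so it checks no genotype label.

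The genes whose pattern over the 8 mice was most like that of each layer marker gene were found by Pearson's r among 23629 other tested genes, a ranking in which high values arise by selection. For Bcl11b probe 1 it was Car12, a carbonic anhydrase, at r = 0.99, and for Foxp2 probe 1 it was Prkch, a protein kinase C, at r = 0.993. They were Rcsd1 for Fezf2 (0.983), Senp5 for Tbr1 (0.985), Vipr1 for Cux2 (0.97), Ttbk1 for Rorb (0.956) and Slc35g2 for Ctgf (0.976). For Cux1 and Tle4 they were transcripts with no gene symbol, NAP029546-1 (0.988) and NAP071116-1 (0.977). An r above 0.9 was reached by 108 genes with Bcl11b, 126 with Foxp2, 151 with Fezf2 and 153 with Tbr1, and by 10 with Tle4, 16 with Cux1, 18 with Ctgf, 28 with Rorb and 50 with Cux2.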

How the data were processed

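Total RNA of the PFC of 8 mice was labeled with Cyanine-3 and hybridized to Agilent SurePrint G3 mouse arrays. The deposited intensity values are processed signals of Feature Extraction (version 10.7.3.1 in the submitters' processing notes), which per the file headers are detrended across each array but not normalized between arrays. The log2 table that the authors deposited was not used, since its columns do not follow the sample names.

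Intensities were taken to log2, quantile normalized over the arrays (the normalization the methods name) and averaged over the spots of a probe. Of 55681 probes other than controls, 81 had an uneven spot and were left out. The two-sided comparison of genotypes used limma 3.58.1 (lmFit, then eBayes) under R 4.3.3. A call is a Benjamini-Hochberg adjusted p under 0.05 over 34339 probes. The script was tested on simulated data. A gene in a list was represented by its brightest tested probe. Correlations with the mean of the striatum markers were tested over the 40320 orders of 8 mice, two-sided.

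The layer genes and the lists, written from general knowledge, were chosen with earlier results of these data known. Named are all layer genes, up to 3 genes of lowest p in a list, the gene most like each layer gene and Gla. Alternatives were other scalings, background corrections, filters, variances and the methods' Welch test, a replicate or slide row block and each array left out. With 4 arrays per genotype, precision is limited by their number. Python 3.11.15 and matplotlib 3.10.9 drew the figures.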

Additional observations from a re-analysis of the deposited data

Results flagged for a closer look

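In 4 of 62 groups of 4 mice examined, 1 mouse stood far from the other 3, with a gap to its nearest neighbor above Dixon's 95% critical share of the whole range. Chance gives such a gap in about 5% of groups. In α-Gal A(-/0) mice, mouse 4 was high at Fezf2 (10.15 against 9.98 to 9.99, gap 0.919 of the range), low at Foxp2 probe 1 (7.15 against 7.81 to 7.94, gap 0.829) and low in the mean deviation of the deep layer genes (-0.10 against 0.09 to 0.13, gap 0.831). This mouse also had the lowest striatum marker mean of its genotype, at -0.44. In wildtype mice, mouse 4 was low at Cux1 probe 3 (5.66 against 5.74 in the other mice, gap 0.909), a gap within a narrow range. The part of tissue composition in these gaps was not tested.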

How the results depend on the processing

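The count of 0 called layer marker probes and of 0 called genes in the marker lists held under all 20 alternatives, and the lowest adjusted p of a layer probe was 0.087, at Cux1 probe 3 without α-Gal A(-/0) mouse 4. Over all probes, the 301 calls became 321 with a 75th percentile shift, 397 with normexp, 424 with trend and robust variances, 223 with no filter on signal, 92 with the methods' Welch test, 150 with a replicate block, 144 with the slide row as a block, and 182 to 257 with 1 mouse left out. They were 51 in slide row 1 alone, with 1 α-Gal A(-/0) array, and 9 in slide row 2 alone, with 1 wildtype array, a lone array taken to vary like those of the other genotype. The replicate numbers do not pair the mice, since residual correlations of same-numbered arrays were -0.089, 0.14, 0.014 and 0.148, and the block changed no layer probe's call. The upper minus deep difference stayed between -0.25 and -0.09. By Pearson's r, 2 relations with striatum markers passed (Bcl11b and Foxp2), 1 without wildtype mouse 1 (Foxp2), 3 without wildtype mouse 3 (Fezf2 added) and 3 with a gene's tested probes averaged (Tbr1 added). By Spearman's rho, Bcl11b, Foxp2 and Fezf2 passed.

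Signs turned at 8 probes, each with a reported adjusted p of 0.58 or more. With the slide row as a block, Cux1 probe 2 gave 0.04 and Tle4 probe 1 -0.04. In slide row 1 alone, again with a single α-Gal A(-/0) array, Cux1 probe 2 gave 0.19, Rorb probe 2 0.03, Tle4 probe 1 -0.05 and Foxp2 probe 2 0.17. In slide row 2 alone, with a single wildtype array, Bcl11b probe 2 gave -0.15, Tle4 probes 1 and 2 -0.02 and -0.25 and Foxp2 probe 1 -0.02. With the striatum marker mean as a covariate, Bcl11b probe 2 gave -0.09, Tle4 probe 1 -0.05 and Foxp2 probe 1 -0.05, and with normexp Tle4 probe 2 gave -0.02. With 1 mouse left out, ranges crossing 0 were -0.09 to 0.07 at Cux1 probe 2, -0.02 to 0.13 at Bcl11b probe 2, -0.05 to 0.07 and -0.07 to 0.09 at Tle4, -0.32 to 0.03 at Foxp2 probe 2 and -0.01 to 0.21 at Ctgf. The causes were not tested. The covariate and the slide rows alone were chosen after seeing the data.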
